A study of Mus musculus with 19 samples.

Results

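The 10 core enzymes of mitochondrial fatty acid oxidation were followed in the crypts of the small intestine of 19 mice. The members were chosen by name as the carnitine palmitoyltransferases and the enzymes of the β-oxidation spiral: *Cpt1a*, *Cpt2*, *Acadvl*, *Acadl*, *Acadm*, *Acads*, *Hadha*, *Hadhb*, *Hadh*, and *Acaa2*. They are 10 of the 55487 genes that the files list, and all 10 passed the filter on low counts that left 17875 genes for testing. Crypts are the epithelial pits that hold the intestinal stem cells and their dividing progeny. Neurotensin, the product of *Nts*, is a peptide released by enteroendocrine cells of the gut, and the study asked how crypts with and without it respond to food and to its absence.

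All mice were C57BL/6, of both sexes, and 10 to 16 weeks old, and each gave 1 library. The paper describes the mice that it fed or fasted, of both genotypes, as carriers of Lgr5-EGFP, a fluorescent reporter of the stem cell gene *Lgr5*. The fed groups were 5 NT+/+ and 4 NT-/- mice, kept ad libitum (AL) on standard chow, and the fasted groups 5 NT+/+ and 5 NT-/- mice without food for 48 hours, with water only (Fast). Fed controls were littermates matched for sex and age. Crypts were released with EDTA from the proximal part of the small intestine, so each library is a mixture of crypt cell types. The labels do not say where or how *Nts* was disrupted. Total counts per mouse were between 9059457 and 35068711. *Nts* lay between 4.98 and 8.59 counts-per-million (CPM) in every NT+/+ mouse and between 0.144 and 0.793 CPM in every NT-/- mouse. The title of 1 mouse, NT+/+ Fast replicate 5, disagrees with its genotype label of NT -/-. It was grouped by its title, and its *Nts* level was 5.43 CPM.

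Fatty acids are burned in the mitochondrial matrix. Long-chain acyl-CoA cannot cross the inner membrane, so CPT1 at the outer membrane moves the acyl chain onto carnitine, a carrier takes acylcarnitine across, and CPT2 returns the chain to CoA. The spiral then repeats dehydrogenation, hydration, a second dehydrogenation, and thiolysis, each turn shortening the chain and releasing acetyl-CoA. The first dehydrogenases divide the work by chain length (ACADVL for very long, ACADL for long, ACADM for medium, and ACADS for short chains), and the trifunctional protein, built of HADHA and HADHB, carries the later steps for long chains, while HADH and ACAA2 serve shorter ones. Malonyl-CoA, an intermediate of fatty acid synthesis, inhibits CPT1. The PPAR family of nuclear receptors, which pair with RXR on repeats of a short core sequence, is known to drive many of these genes when fatty acids are abundant, as in fasting.

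RefSeq promoter windows (GRCm38.p6, from 250 bases before to 50 bases after the start site) were held for 9 of the 10 genes. Shown here is the stretch without annotated exons for the genes that the results turn on: the shared interval of the trifunctional protein genes, *Acadl*, which with *Acaa2* had the highest fold changes, *Cpt1a*, the gate of the pathway, and *Acadm* and *Acadvl*, which with *Cpt1a* hold the receptor core. Capitals mark AGGTCA, the core of nuclear receptor sites, and GGGCGG, the GC box, each read on either strand (as TGACCT and CCGCCC on the other). *Hadha*, on the minus strand, and *Hadhb*, on the plus strand, stand head to head. Their GENCODE M21 starts have 85 bases between them, at chr5:30155163-30155247, given on the plus strand. The RefSeq start sites of their windows are 30154980 and 30155253, further apart. The *Acadl* stretch is chr1:66863278-66863559 (minus strand), the *Cpt1a* stretch chr19:3323051-3323284 (plus strand), the *Acadm* stretch chr3:153944633-153944893 (minus strand), and the *Acadvl* stretch chr11:70015412-70015678 (minus strand). The *Cpt1a* stretch lies inside the GENCODE span of its gene, which starts before the RefSeq start site.
Hadha and Hadhb, shared interval: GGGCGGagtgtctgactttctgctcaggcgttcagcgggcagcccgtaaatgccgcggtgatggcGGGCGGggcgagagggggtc
Acadl: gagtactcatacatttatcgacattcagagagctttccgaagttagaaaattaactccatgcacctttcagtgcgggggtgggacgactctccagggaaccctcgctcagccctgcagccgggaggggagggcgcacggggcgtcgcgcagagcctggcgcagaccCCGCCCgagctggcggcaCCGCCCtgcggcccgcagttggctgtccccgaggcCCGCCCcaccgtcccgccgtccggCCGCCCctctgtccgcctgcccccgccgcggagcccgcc
Cpt1a: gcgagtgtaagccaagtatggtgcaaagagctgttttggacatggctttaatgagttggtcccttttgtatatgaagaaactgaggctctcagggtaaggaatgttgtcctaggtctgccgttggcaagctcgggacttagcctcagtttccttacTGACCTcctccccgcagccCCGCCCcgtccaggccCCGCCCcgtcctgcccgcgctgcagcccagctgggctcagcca
Acadm: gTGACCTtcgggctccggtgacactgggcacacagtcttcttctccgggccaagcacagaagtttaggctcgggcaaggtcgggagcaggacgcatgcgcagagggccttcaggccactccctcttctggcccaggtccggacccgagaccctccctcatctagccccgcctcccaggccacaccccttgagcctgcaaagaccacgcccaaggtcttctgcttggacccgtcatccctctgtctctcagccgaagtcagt
Acadvl: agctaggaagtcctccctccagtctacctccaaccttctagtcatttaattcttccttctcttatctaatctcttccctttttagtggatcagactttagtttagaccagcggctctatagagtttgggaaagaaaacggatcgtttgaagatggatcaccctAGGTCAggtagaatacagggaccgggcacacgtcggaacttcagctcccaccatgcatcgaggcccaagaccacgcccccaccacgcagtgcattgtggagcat

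AGGTCA was present in 3 of the 9 windows (*Acadm*, *Acadvl*, and *Cpt1a*) and in 16.3% of all 32851 promoter windows. GGGCGG was present in 7 of the 9 (*Acadl*, *Acads*, *Cpt1a*, *Cpt2*, *Hadh*, *Hadha*, and *Hadhb*) and in 35.7% of all windows. The *Hadha* and *Hadhb* windows overlap, and the 1 GC box of the *Hadha* window also lies in that of *Hadhb*, so these 2 are not independent. The estrogen-related receptor element TCAAGGTCA, which contains this core, was in 0 of the 9 and in 0.423% of all windows. The PPAR and RXR direct repeat, a pair of cores in the same direction 1 base apart, was in 0 of the 9 and in 0.0396% of all windows. The exon-free *Acadl* stretch held 4 GC boxes and 0 AGGTCA cores, and that of *Cpt1a* held 2 GC boxes and 1 core. These matches are letters in short windows, and sites outside the windows were not searched. Only exact matches were counted, so sites that vary from these letters were missed. The exact direct repeat is so rare in all windows that 0 of the 9 does not show that such sites are absent.

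Fasting raised all 10 enzymes in NT+/+ crypts and all 10 in NT-/- crypts (edgeR's quasi-likelihood test, adjusted p under 0.05 over all genes tested). Of all genes tested, 11.2% were called higher with fasting in NT+/+ mice and 12.5% in NT-/- mice. For each of the 10, every fasted mouse lay above every fed mouse of its genotype, a separation seen for 7.63% of all genes in NT+/+ mice and 10.5% in NT-/- mice. The median log2 fold change over the 10 was 0.94 in each genotype, against −0.01 and −0.02 over all genes. The increases reached from 0.42 (*Hadh*) to 2.06 (*Acadl*) in NT+/+ mice, and from 0.54 (*Acads*) to 2.28 (*Acadl*) in NT-/- mice. Adjusted p values lay between 1.33e-11 and 0.00065, and between 2.53e-11 and 0.000988, respectively. In whole crypts, a change in the share of cells that carry a transcript and a change in RNA per cell cannot be told apart.

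**Figure D1:**
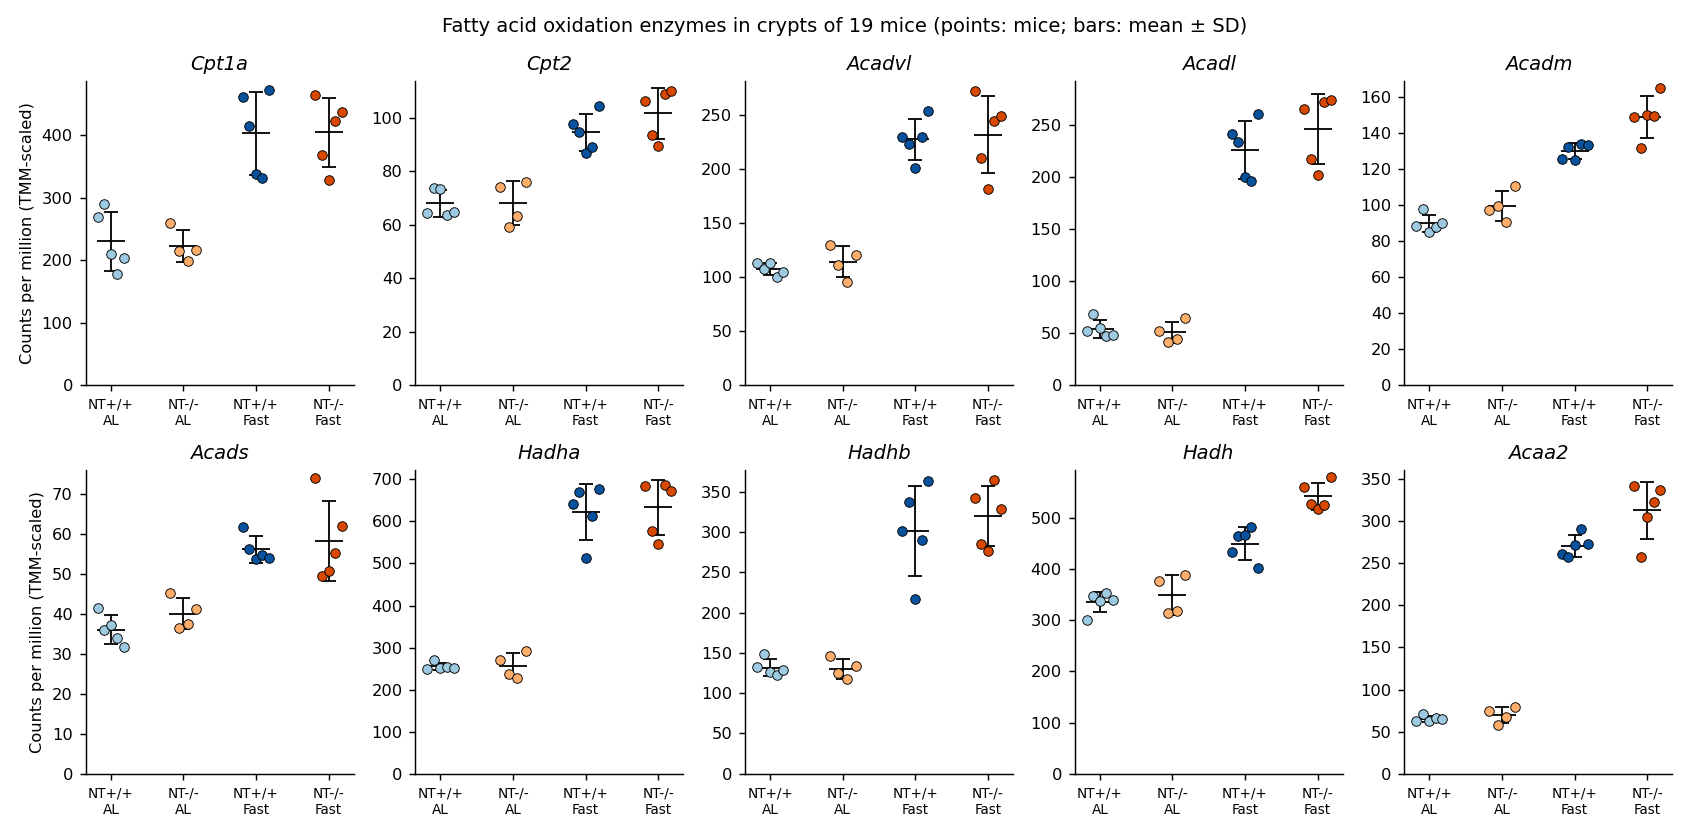
Counts-per-million (TMM-scaled; y axis from 0) of each of the 10 enzymes in each mouse, by genotype and diet (AL, fed ad libitum; Fast, fasted for 48 hours). Points are mice and bars are mean ± SD. In every panel the fasted mice of a genotype lie above its fed mice, and the fold between the group means is highest for *Acadl* and *Acaa2*.

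The carnitine step was described first. *Cpt1a* encodes the liver-type isoform of CPT1, the regulated entry point of the pathway (chr19:3322334-3385733, GRCm38). In fed NT+/+ mice, replicates 1 to 5, *Cpt1a* stood at 269, 290.3, 211, 178, and 203 CPM, and in the 4 fed NT-/- mice at 259.9, 214, 199, and 217 CPM. The 5 fasted NT+/+ mice had 462, 414, 338, 332, and 472 CPM, and the 5 fasted NT-/- mice 465, 369, 329, 424, and 437 CPM. The lowest fasted mouse, at 329 CPM, was above the highest fed mouse, at 290.3 CPM. *Cpt1a* rose 1.75-fold in NT+/+ mice (log2 fold change, 0.81; SE, 0.14; adjusted p = 0.000368 by edgeR) and 1.82-fold in NT-/- mice (0.86; SE, 0.15; adjusted p = 0.00032). Its coefficient of variation in fed NT+/+ mice, 20.5%, was the highest of the 10 in that group.

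*Cpt2*, the inner membrane partner that regenerates acyl-CoA (chr4:107903981-107923610), rose less. Its mean was 68.0 ± 5.09 CPM (SD, n = 5) in fed and 94.6 ± 6.98 CPM (n = 5) in fasted NT+/+ mice, and 68.1 ± 8.26 CPM (n = 4) and 102 ± 9.47 CPM (n = 5) in NT-/- mice. The log2 fold changes were 0.48 (SE, 0.08) and 0.58 (SE, 0.09), which are 1.39-fold and 1.49-fold. The gap between the highest fed mouse, at 75.9 CPM, and the lowest fasted mouse, at 87.0 CPM, was narrow.

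Among the acyl-CoA dehydrogenases, which take the first oxidation step, *Acadl* changed most. *Acadl* (chr1:66830839-66863277) stood at 52.3, 68.2, 55.2, 46.8, and 47.8 CPM in the fed NT+/+ mice and at 51.9, 41.7, 44.1, and 64.8 CPM in the fed NT-/- mice. In the fasted NT+/+ mice it stood at 241, 233, 199.7, 196, and 260.03 CPM, and in the fasted NT-/- mice at 266, 217, 202, 272, and 274 CPM. The lowest fasted mouse, at 196 CPM, was far above the highest fed mouse, at 68.2 CPM. The increase was 4.18-fold in NT+/+ mice (log2 fold change, 2.06; SE, 0.13; adjusted p = 5.06e-09 by edgeR) and 4.86-fold in NT-/- mice (2.28; SE, 0.15; adjusted p = 4.22e-09). By p value *Acadl* ranked 7 of the 17875 genes in both genotypes.

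*Acadvl*, the very-long-chain dehydrogenase (chr11:70010183-70015411), rose 2.11-fold in NT+/+ mice, from 108 ± 5.66 to 228 ± 18.8 CPM, and 2.03-fold in NT-/- mice, from 114 ± 14.3 to 232 ± 35.8 CPM. The medium-chain enzyme *Acadm* (chr3:153922357-153944632) rose 1.45-fold, from 89.8 ± 4.85 to 130.1 ± 4.24 CPM, and 1.5-fold, from 99.5 ± 8.40 to 149 ± 11.7 CPM. *Acads*, which acts on short chains (chr5:115110299-115119346), rose 1.56-fold, from 36.1 ± 3.70 to 56.2 ± 3.30 CPM, and 1.46-fold, from 40.1 ± 3.94 to 58.4 ± 10.03 CPM. Each ± is an SD over 5 mice, or over 4 for fed NT-/- mice. Their log2 fold changes in NT+/+ mice were 1.08 (SE, 0.10), 0.53 (SE, 0.07), and 0.64 (SE, 0.10), so within this family *Acadl* and *Acadvl*, of the longer chains, moved more than *Acadm* and *Acads*. That order of sizes was not tested.

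The trifunctional protein genes moved in near parallel. *Hadha* encodes its α subunit, with the hydratase and dehydrogenase (chr5:30118304-30155162), and *Hadhb* its β subunit, with the thiolase (chr5:30155248-30184593). *Hadha* stood at 248, 271, 251, 253, and 252 CPM in fed NT+/+ mice and at 271, 237, 227, and 291 CPM in fed NT-/- mice. Fasted NT+/+ mice had 642, 669, 513, 613, and 678 CPM, and fasted NT-/- mice 683, 576, 547, 686, and 673 CPM. The lowest fasted mouse, at 513 CPM, and the highest fed mouse, at 291 CPM, did not come near each other.

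*Hadhb* had 133, 149, 126, 122, and 129 CPM in the fed NT+/+ mice and 146, 125, 117, and 134 CPM in the fed NT-/- mice. With fasting it had 302, 337, 216, 289.8, and 363 CPM in NT+/+ mice and 342, 286, 277, 365, and 328 CPM in NT-/- mice. The third fasted NT+/+ mouse was the lowest of the fasted mice for both subunits. *Hadha* rose 2.44-fold (log2 fold change, 1.29; SE, 0.09) and 2.47-fold (1.30; SE, 0.10), and *Hadhb* 2.29-fold (1.19; SE, 0.12) and 2.45-fold (1.29; SE, 0.12), in NT+/+ and NT-/- mice. In transcripts-per-million (TPM, which is scaled by length), the log2 ratio of *Hadha* to *Hadhb* was 0.85 ± 0.08 (SD, n = 5) in fed and 0.85 ± 0.06 (n = 5) in fasted NT+/+ mice, and 0.81 ± 0.09 (n = 4) and 0.83 ± 0.11 (n = 5) in NT-/- mice. Over the 19 mice, the deviations of the pair from their group means correlated with r = 0.89, a description over mice that share sequencing depth and handling.

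The later enzymes for shorter chains moved unequally. *Acaa2*, the matrix 3-ketoacyl-CoA thiolase that releases acetyl-CoA, stood at 62.1, 70.5, 62.6, 65.9, and 64.9 CPM in fed NT+/+ mice and at 74.6, 58.0, 67.9, and 78.9 CPM in fed NT-/- mice. The fasted NT+/+ mice had 262, 257, 272, 291, and 273 CPM, and the fasted NT-/- mice 342, 258, 304, 323, and 337 CPM. It rose 4.15-fold (log2 fold change, 2.05; SE, 0.09; adjusted p = 1.33e-11 by edgeR) and 4.48-fold (2.16; SE, 0.10; adjusted p = 2.53e-11). In NT+/+ mice the log2 fold changes of *Acaa2* and *Acadl* differed by less than either SE, and without NT+/+ Fast replicate 5 *Acaa2*, at 2.05, was above *Acadl*, at 2.01. *Acaa2* had the smallest p value of all 17875 genes in both genotypes.

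*Hadh*, the 3-hydroxyacyl-CoA dehydrogenase for medium and short chains (chr3:131233419-131272101), had the smallest fasting effect in NT+/+ mice. It stood at 302, 347, 337, 354, and 339 CPM in the fed and at 434, 464, 466, 483, and 403 CPM in the fasted NT+/+ mice. Fed NT-/- mice had 376, 315, 318, and 389 CPM, and fasted NT-/- mice 561, 527, 518, 525, and 581 CPM. The increase was 1.34-fold in NT+/+ mice (log2 fold change, 0.42; SE, 0.08; adjusted p = 0.00065 by edgeR) and 1.55-fold in NT-/- mice (0.63; SE, 0.08; adjusted p = 2.03e-05).

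Unequal increases changed the order of the transcripts. Per length, fed NT+/+ crypts held *Hadh* at 219 ± 31.9 TPM (SD, n = 5), then *Hadha* at 147 ± 20.2, *Acadm* at 83.5 ± 14.0, *Hadhb* at 81.8 ± 12.9, *Cpt1a* at 65.8 ± 15.0, *Acadvl* at 64.7 ± 5.59, *Acaa2* at 56.3 ± 9.54, *Cpt2* at 41.6 ± 7.57, *Acadl* at 36.2 ± 7.25, and *Acads* at 24.8 ± 1.80 TPM. Among neighbours in that order, the ranges over mice were apart for *Hadha* above *Acadm* and for *Acadl* above *Acads*, and overlapped for every other pair. The fed NT-/- order was the same except that *Acadvl*, at 67.2 ± 8.02 TPM, came before *Cpt1a*, at 62.6 ± 5.26 TPM, with overlapping ranges.

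In fasted NT+/+ crypts, *Hadha* was highest at 335 ± 50.2 TPM, followed by *Hadh* at 282 ± 39.7, *Acaa2* at 225 ± 22.8, *Hadhb* at 186 ± 31.7, *Acadl* at 149 ± 13.5, *Acadvl* at 128 ± 13.6, *Acadm* at 116 ± 12.7, *Cpt1a* at 106 ± 13.5, *Cpt2* at 54.3 ± 6.04, and *Acads* at 35.9 ± 3.00 TPM. The *Cpt1a*, *Cpt2*, and *Acads* ranges were apart from each other, and the ranges of other neighbours overlapped. *Acaa2* thus moved from rank 7 to rank 3 and *Acadl* from rank 9 to rank 5. In fasted NT-/- crypts the order matched except for *Acadm* (135 ± 17.3 TPM) before *Acadvl* (132 ± 15.0 TPM), whose ranges overlapped. *Hadh*, at 346 ± 22.9 TPM, lay beside *Hadha*, at 348 ± 34.0 TPM.

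**Figure D2:**
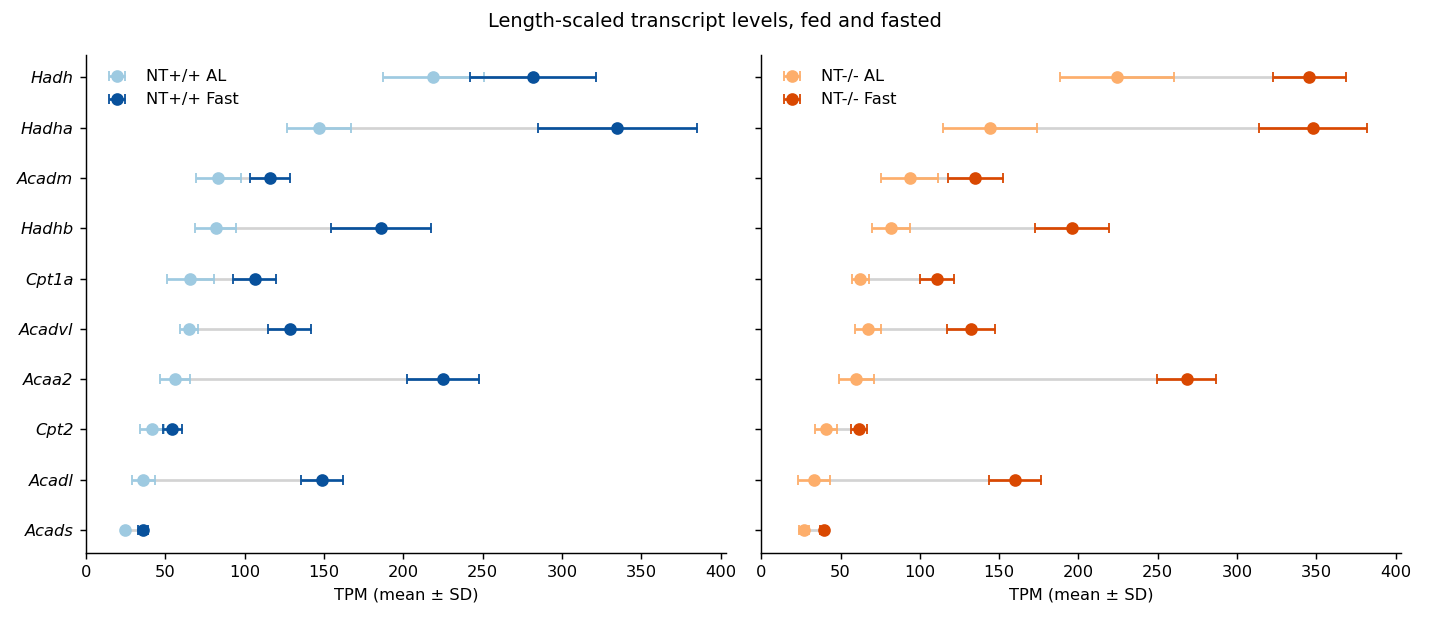
TPM (x axis from 0; mean ± SD, n = 4 to 5 mice) of the 10 enzymes, ordered by their level in fed NT+/+ mice, for NT+/+ mice (left) and NT-/- mice (right), with a line joining fed to fasted. *Acaa2* passed *Acadm*, *Hadhb*, *Cpt1a*, and *Acadvl* with fasting in both genotypes.

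Summed over the 10, the level was 820.2 ± 112 TPM in fed and 1617 ± 174 TPM in fasted NT+/+ mice, and 835 ± 132 and 1796 ± 132 TPM in NT-/- mice. The share held by *Hadh* was 26.7% ± 2.0 of this sum in fed and 17.4% ± 2.0 in fasted NT+/+ mice, while that of *Acaa2* was 6.8% ± 0.4 and 13.9% ± 0.7 and that of *Acadl* 4.4% ± 0.4 and 9.2% ± 0.6. The share of *Acadvl* was 7.9% in both. The log2 ratio of *Acadl* to *Acadm* in TPM was −1.21 ± 0.18 in fed and 0.36 ± 0.14 in fasted NT+/+ mice, and −1.52 ± 0.24 and 0.25 ± 0.20 in NT-/- mice, so the mean of the long-chain transcript went from below to above that of the medium-chain one. For *Cpt1a* over *Cpt2* the log2 ratio was 0.65 ± 0.20 and 0.97 ± 0.14 in NT+/+ mice, and 0.62 ± 0.24 and 0.84 ± 0.15 in NT-/- mice, with overlapping ranges in both genotypes.

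Loss of neurotensin was compared next, within each diet. None of the 10 enzymes was called between genotypes in fed or in fasted mice by edgeR's quasi-likelihood test. Of all genes tested, 0.00559% were called in fed mice and 0.00559% in fasted mice. That was 1 gene in each diet, *Nts* itself (adjusted p = 5.82e-07 in fed and 1.36e-05 in fasted mice by edgeR). An unadjusted p under 0.05 was reached by 1 of 10 in fed mice (*Acadm*) and by 3 of 10 in fasted mice (*Hadh*, *Acadm*, and *Acaa2*), and by 1.67% and 9.14% of all genes. DESeq2 called 0 in fed mice and 1 in fasted mice, *Hadh* (adjusted p = 0.0279), and edgeR's likelihood ratio test called 0 in both. Of the genes to which it gave an adjusted p, DESeq2 called 4 in fed mice (0.0116%) and 97 in fasted mice (0.919%). Log2 fold changes were between −0.10 and 0.15 in fed mice, with 7 of 10 above 0, and between 0.0048 (*Cpt1a*) and 0.27 (*Hadh*) in fasted mice, with 10 of 10 above 0. Over all genes, 49.6% and 47.3% were above 0. Of the markers of crypt cell types, 0 enterocyte and 0 proliferation markers were called between the fasted genotypes. The 12 enterocyte markers had a median log2 fold change of 0.45 (range, 0.10 to 0.72; 3 with an unadjusted p under 0.05 by edgeR), and the 8 proliferation markers one of −0.25 (range, −0.40 to −0.06; 7 under 0.05). Their part in the values of the enzymes was not tested. The fasting and genotype comparisons share mice, so their values are not independent.

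*Hadh* differed most between fasted genotypes. Each of the 5 fasted NT-/- mice, from 518 to 581 CPM, was above each of the 5 fasted NT+/+ mice, from 403 to 483 CPM, a separation in this direction seen for 0.94% of all genes. The difference was 1.21-fold (log2 fold change, 0.27; SE, 0.08), with an unadjusted p of 0.00236 and an adjusted p of 0.283 by edgeR. The lowest NT+/+ mouse, at 403 CPM, was replicate 5, whose genotype label reads NT -/-. Grouped by that label, the ranges overlapped, and the log2 fold change was 0.17 (SE, 0.09; adjusted p = 0.831 by edgeR). Without this mouse it was 0.23 (SE, 0.08; adjusted p = 0.506). In fed mice the ranges overlapped, and the log2 fold change was 0.06 (SE, 0.08). The test of whether fasting acted differently on *Hadh* by genotype gave a log2 difference of 0.21 (SE, 0.11) with an adjusted p of 1.0.

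*Acadm* was 0.20 higher on the log2 scale in fasted NT-/- than in fasted NT+/+ mice (SE, 0.07; adjusted p = 0.344 by edgeR), and *Acaa2* 0.21 higher (SE, 0.08; adjusted p = 0.45). In both, the ranges overlapped through 1 fasted NT-/- mouse, replicate 2, at 132 CPM for *Acadm* and 258 CPM for *Acaa2*. *Cpt1a*, which the study also assayed between fasted genotypes, had a mean of 404 ± 66.7 CPM in NT+/+ mice against 405 ± 54.9 CPM without neurotensin, a log2 fold change of 0.0048 (SE, 0.14; adjusted p = 0.997 by edgeR). The other 6 had log2 fold changes from 0.02 (*Hadha*) to 0.12 (*Acadl*) with SEs of 0.08 to 0.13.

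Averaged over diets, 0 of the 10 were called between genotypes and 0.0224% of all genes were. The largest value was that of *Acadm* (log2 fold change, 0.17; SE, 0.05; adjusted p = 0.323 by edgeR), followed by *Hadh* at 0.16 (SE, 0.06) and *Acaa2* at 0.15 (SE, 0.06), and these 3 were those with an unadjusted p under 0.05, as were 6.77% of all genes. The fasting effect itself differed between genotypes in 0 of the 10 and in 0% of all genes by the same test. Before adjustment, 485 of all genes (2.71%) and 0 of the 10 had a p under 0.05, and the values for the 10 ran from −0.10 (*Acads*) to 0.22 (*Acadl*; SE, 0.19). DESeq2 and the likelihood ratio test also called 0 of the 10 in both, where DESeq2 called 0.343% and 0.0029% of all genes with an adjusted p. With SEs from 0.10 to 0.20, differences in the fasting effect of this size could not be resolved.

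**Figure D3:**
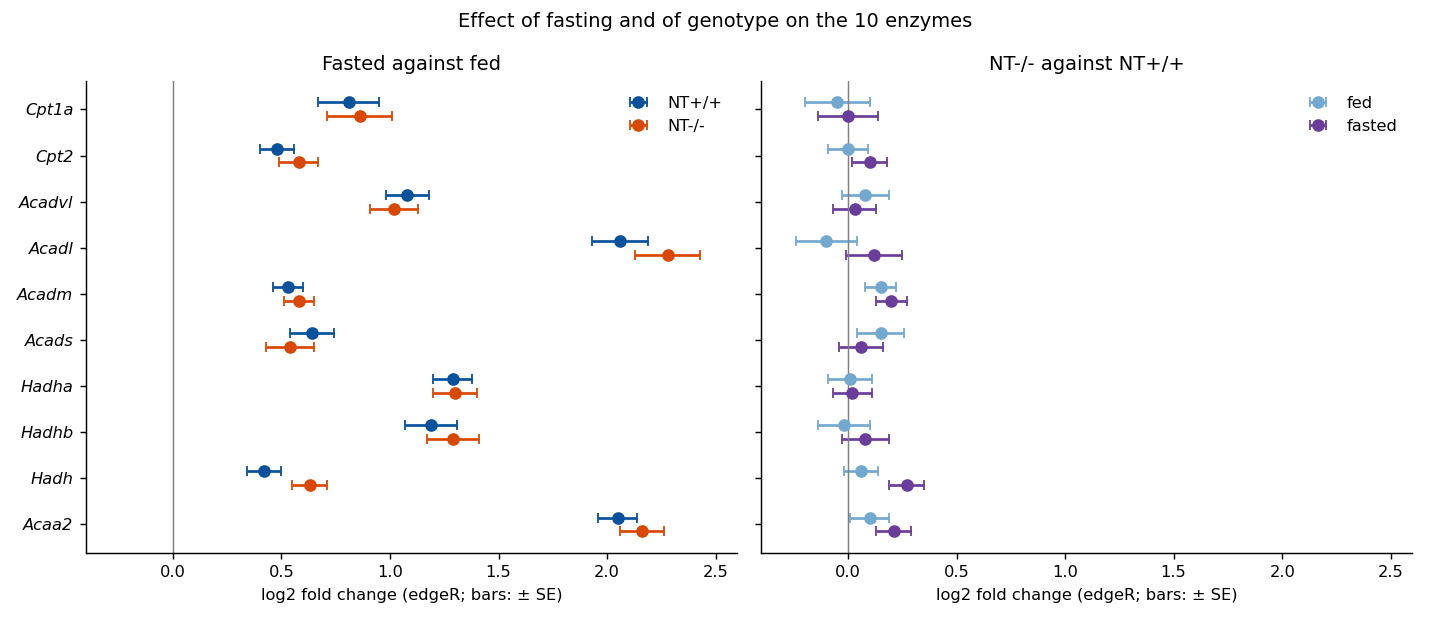
Log2 fold change (points; bars, ± SE; edgeR) of each enzyme for fasted against fed mice in each genotype (left) and for NT-/- against NT+/+ mice in each diet (right), on the same x axis. Fasting effects run from 0.42 to 2.28, and genotype effects stay between −0.10 and 0.27.

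The pathway around the 10 enzymes was read from gene lists. Fasting raised 6 of 9 tested genes of carnitine uptake, shuttling, and acyl-CoA synthesis in NT+/+ mice and 5 of 9 in NT-/- mice, with 0 lower. The largest was *Slc25a20*, the acylcarnitine carrier that stands between CPT1 and CPT2, with log2 fold changes of 1.65 (SE, 0.12) and 1.78 (SE, 0.13). *Slc22a5*, the plasma membrane carnitine transporter, rose by 0.52 (SE, 0.08) and 0.69 (SE, 0.09), and *Acsl1*, a long-chain acyl-CoA synthetase, by 0.88 (SE, 0.10) and 1.01 (SE, 0.11). All 3 genes of electron transfer from the dehydrogenases to ubiquinone rose in both genotypes: *Etfa* by 0.43 and 0.45, *Etfb* by 0.74 and 0.71, and *Etfdh* by 0.69 and 0.80.

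Of 12 auxiliary acyl-CoA enzymes, 6 rose in each genotype, and 1 fell in NT-/- mice. *Acot2*, a matrix thioesterase, rose by 3.18 (SE, 0.23) and 3.31 (SE, 0.25), *Eci2*, an enoyl-CoA isomerase for unsaturated chains, by 1.52 (SE, 0.10) and 1.68 (SE, 0.11), and *Acad11* by 0.66 (SE, 0.11) and 0.83 (SE, 0.12). Peroxisomal oxidation, which shortens very long chains, rose in 12 of 13 tested genes in both genotypes. Examples were *Hsd17b4*, the peroxisomal hydratase and dehydrogenase, at 1.06 and 1.14, and its thiolases *Acaa1a*, at 0.81 and 1.01, and *Acaa1b*, at 2.73 and 2.91. *Acaa1a* and *Acaa1b* are close paralogs, so RSEM's division of their reads is uncertain.

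Transcripts of enzymes that make, degrade, or use malonyl-CoA, the inhibitor of CPT1, moved in both directions. Malonyl-CoA itself was not measured. *Acacb*, the acetyl-CoA carboxylase whose malonyl-CoA is made at the mitochondrion, rose by 2.37 (SE, 0.22) and 2.29 (SE, 0.24), and *Mlycd*, which degrades malonyl-CoA, rose by 0.52 (SE, 0.11) and 0.54 (SE, 0.11). *Fasn*, the synthase that consumes malonyl-CoA, fell by 0.43 on the log2 scale (SE, 0.12; adjusted p = 0.0172 by edgeR) and by 0.83 (SE, 0.13; adjusted p = 0.000123). Of the 4 genes on this list, 2 rose in each genotype, and 1 fell in NT+/+ and 2 in NT-/- mice.

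All 13 tested genes of a list of known PPAR targets outside the 10 enzymes rose in both genotypes, with a median log2 fold change of 2.09 and 2.05. The smallest p values were those of *Acot1*, a cytosolic thioesterase, which rose by 4.32 (SE, 0.25) and 4.46 (SE, 0.27), and of *Slc25a20* and *Acot2*. *Acot1* and *Acot2* are near-identical neighbours that may share reads. Of 10 receptors and coactivators, 3 rose and 3 fell in each genotype. *Pparg* rose by 1.15 (SE, 0.15) and 1.47 (SE, 0.16), and *Rxra* by 0.49 (SE, 0.08) and 0.51 (SE, 0.09), while *Ppard* fell by 1.08 (SE, 0.13) and by 1.28 (SE, 0.13). The tricarboxylic acid cycle, which receives acetyl-CoA in the same matrix, had 0 of 17 genes higher and 2 lower in NT+/+ mice (*Sdhd*, −0.24; *Fh1*, −0.25), and 1 higher (*Sucla2*, 0.29) and 1 lower (*Fh1*, −0.25) in NT-/- mice. Of all genes tested, 10.4% were called lower in NT+/+ mice and 12.6% in NT-/- mice, and the difference between this list and the others was not tested.

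**Figure D4:**
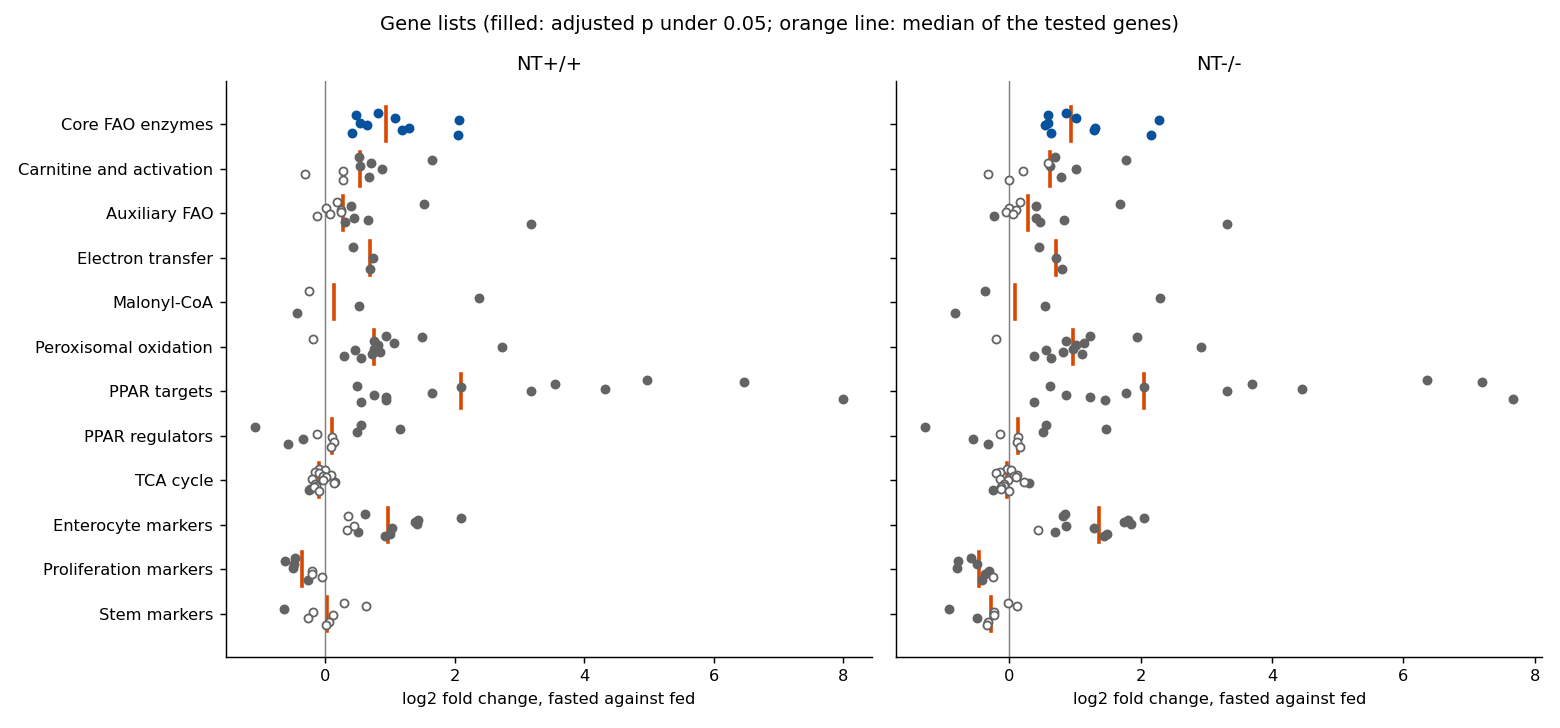
Log2 fold change of fasted against fed mice for each tested gene of each list, in NT+/+ (left) and NT-/- mice (right). Filled points passed an adjusted p of 0.05, and the orange line is the list's median: 0.94 for the 10 core enzymes in both genotypes, and −0.10 and −0.04 for the 17 genes of the tricarboxylic acid cycle.

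Markers of crypt cell types moved with fasting as well. The summed level of 12 enterocyte markers was 7939 ± 1872 CPM in fed and 15125 ± 4240 CPM in fasted NT+/+ mice, with ranges of 4815 to 9602 and 9547 to 18935 CPM. In NT-/- mice it was 8729 ± 1762 and 20753 ± 2383 CPM, with ranges of 7164 to 10586 and 16845 to 22399 CPM. Fasting raised 9 of the 12 in NT+/+ and 11 of 12 in NT-/- mice, and 0 were at 0. *Fabp1* stands on this list and on that of PPAR targets. *Sis*, the brush border sucrase-isomaltase, was called in NT-/- mice (0.81; SE, 0.19) and had a value of 0.35 (SE, 0.18) in NT+/+ mice, and *Apoa1*, an apolipoprotein of chylomicrons, rose by 1.39 (SE, 0.28) and 1.75 (SE, 0.31). Of 8 proliferation markers, 5 fell in NT+/+ and 7 in NT-/- mice, among them *Mki67* by 0.46 and by 0.59. Of 8 stem cell markers, 0 were called higher, and 1 and 2 were called lower. Their median log2 fold change was 0.04 (range, −0.63 to 0.63) in NT+/+ and −0.28 (range, −0.92 to 0.12) in NT-/- mice. *Olfm4*, which fell by 0.63 and by 0.92, was the lowest of the list in each genotype. The part of these shifts in the rise of the enzymes was not tested.

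The fasted mouse NT+/+ Fast replicate 1 had an enterocyte marker sum of 9547 CPM, within the 4815 to 10586 CPM of the 9 fed mice. All 10 enzymes in this mouse were above every fed mouse, with *Acadl* at 241 CPM, *Acaa2* at 262 CPM, and *Cpt1a* at 462 CPM. The fed mouse of the same replicate number, NT+/+ AL replicate 1, had the lowest enterocyte marker sum of the fed mice, 4815 CPM. Over the genes tested, the deviations of the pair from their group means correlated with r = 0.499. The part of replicate number in these sums was not tested. Other markers in NT+/+ Fast replicate 1 differed in part from those of fed mice. Its proliferation marker sum, 1458.5 CPM, was below that of the lowest fed mouse, 1632.3 CPM. Its stem cell marker sum, 2890.1 CPM, was within the 2271.0 to 3752.7 CPM of the fed mice. The 2 fasted NT+/+ mice with the lowest enterocyte marker sums were replicates 1 and 5 (9547 and 11775 CPM). They had the highest *Cpt1a* (462 and 472 CPM), *Acadl* (241 and 260.03 CPM), *Cpt2*, and *Acadvl* of their group and the lowest *Hadh* (434 and 403 CPM). For the other 5 enzymes these mice did not stand together at either end of the group. Paneth cell markers, whose summed range was 19540 to 34345 CPM in fed and 21569 to 37029 CPM in fasted NT+/+ mice, were called in 0 of 8, and in NT-/- mice 1 of 8 fell. Among 8 goblet cell markers, 1 rose in each genotype, and 2 and 4 fell, and among 8 enteroendocrine markers 1 rose in each and 0 and 1 fell. Of 6 tuft cell markers 0 were called, and of 8 immune markers 0 and 1 rose and 1 fell in each. Stromal markers summed to 7.87 to 16.9 CPM over the groups, with 0 of 7 tested called, and immune markers to 78.1 to 208 CPM.

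**Figure D5:**
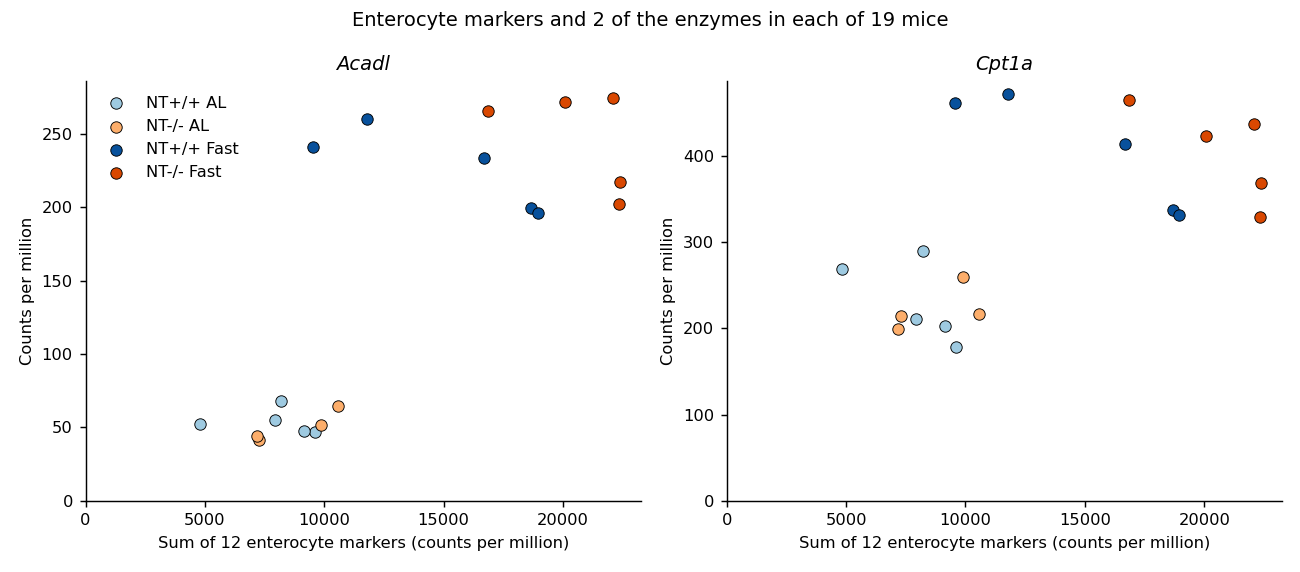
Summed CPM of 12 enterocyte markers (x axis from 0) against the CPM of *Acadl* (left) and *Cpt1a* (right; y axes from 0) in each of the 19 mice. Fasted mice lie to the right of and above fed mice except for 1 fasted NT+/+ mouse, which lies above them at a fed marker sum of 9547 CPM.

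The 10 enzymes also varied together between mice of the same group. Over 45 pairs of the 10, the correlation of the mice's deviations from their group means had a median r of 0.58, with 44 pairs above 0, from −0.12 to 0.92 (*Cpt2* with *Acadl*). These deviations come from 19 mice whose libraries differ in depth and cell makeup. Pairs of other genes were not examined in this way, so the values do not show a trait particular to the enzymes. Of 13237 genes outside the set with an average of at least 1 log2 CPM, the 5 whose profile over the 19 mice was most like the mean z score of the enzymes were *Etfdh* (r = 0.989), which passes their electrons to ubiquinone, *Pxmp4* (r = 0.987), a peroxisomal membrane protein, *Eci2* (r = 0.987), *Slc25a20* (r = 0.987), and *Ech1* (r = 0.985), a dienoyl-CoA isomerase. The gap between fed and fasted mice sets most of these values. Within groups, the deviations of the same 5 correlated with r of 0.86, 0.80, 0.71, 0.81, and 0.78. The 5 were picked over these same mice, so high values within groups follow in part from that choice.

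Some reads of the 10 could belong to overlapping genes, since the strand setting of the counting is not given in the sources used here. *Acadvl* shares 2119 bases with *Dvl2* on the opposite strand, *Hadha* 75 bases with *Garem2* on the opposite strand, and *Acadl* 495 bases with the pseudogene *Gm15793* on its own strand. The highest counts of these 3 in a mouse were 538, 17, and 72, while the lowest counts of *Acadvl*, *Hadha*, and *Acadl* in a mouse were 1708, 3800, and 770.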

How the data were processed

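RNA from the crypts of 19 mice was ribosome-depleted and sequenced as 100-base single reads. The authors trimmed reads with Trimmomatic 0.39, mapped them to Ensembl GRCm38 release 100 transcripts with RSEM (version not given in the sources used here), and deposited per gene an expected count, which is not normalized, and TPM and FPKM, which are scaled by length and library; replicates were not pooled. RSEM divides reads that fit several genes.

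Here, expected counts were rounded, scaled by TMM, and filtered with filterByExpr, and 17875 genes were tested in 1 fit of 4 groups (15 residual degrees of freedom; biological coefficient of variation, 18.9%) by edgeR 4.0.16 (R 4.3.3) with the quasi-likelihood test and Benjamini-Hochberg adjustment over all genes; called means an adjusted p under 0.05. CPM use TMM library sizes. TPM compared genes, and FPKM was its alternative. Totals of 9059457 to 35068711 counts per mouse gave the 10 enzymes at least 437 counts in every mouse. Mice are the replicates. GENCODE M21 gave coordinates. All 10 enzymes and 167 of 167 list symbols were matched by gene name.

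The enzymes and lists were chosen with earlier results of these data known. Named besides the enzymes and *Nts* are, per pathway list, up to 3 genes with the smallest p in each fasting comparison; per marker list, up to 2 of the highest CPM; and 5 genes by correlation. Of the lists and genes that meet this rule, 1 list and its genes are not reported here. Alternatives were other filters, upper quartile and RLE scaling, DESeq2 1.42.0, edgeR's likelihood ratio test, and replicate blocks. Others were NT+/+ Fast replicate 5 regrouped by its other label, only the groups compared, and each mouse left out. Sex was also put in the model, in a fit without NT-/- Fast replicate 5, whose sex label is missing. Scripts were tested on simulated data.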

Additional observations from a re-analysis of the deposited data

Results flagged for a closer look

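*Hadha* in NT+/+ AL replicate 2 lay far from the rest of its group, at 271.2 CPM against 248 to 253 CPM in the other 4 mice, and the gap was 0.806 of the group's range. It was 1 of 40 combinations of an enzyme and a group examined in this way, where chance flags about 2.0. The fed NT+/+ spread of *Hadha* is narrow, with an SD of 9.15 CPM, and leaving this mouse out changed no call.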

How the results depend on the processing

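The 10 calls with fasting in each genotype held under every alternative run, including each mouse left out (log2 fold changes of *Acadl*, 2.01 to 2.16 and 2.20 to 2.42), and 10 of 10 was the count in each. Between genotypes the count of enzymes called was 0 in every alternative except DESeq2 in fasted mice, which called 1, *Hadh* (log2 fold change, 0.28). Over its other alternatives the adjusted p of *Hadh* reached 0.831, and with a mouse left out it was 0.229 to 0.589. FPKM differs from TPM by 1 factor per library, 0.86 to 0.964 in fed NT+/+ mice, so all genes of a library move alike; *Acadvl*, at 57.8, and *Acads*, at 22.2, passed 1 SD because their SDs are small. Over all genes, edgeR called 1, 1, 4, and 0 between genotypes (fed, fasted, averaged, and the difference of fasting effects), DESeq2 called 4, 97, 54, and 1, and the likelihood ratio test 3, 41, 36, and 1; the cause was not tested. The 1 gene that edgeR called in fed and in fasted mice was *Nts*. The stricter filter, at least 10 counts in every mouse, removed *Nts*, which had as few as 3 counts in NT-/- mice. It gave 0 in fed and 0 in fasted mice. The regrouped mouse, which had *Nts* at 5.43 CPM, gave 0, 0, and 1 averaged, and sex in the model 1 averaged. The fit with sex lacked NT-/- Fast replicate 5, which has no sex label. Without that mouse and without sex in the model, the averaged count was also 1. Leaving out a mouse gave 1 to 4 in fasted mice and 1 to 6 averaged. Depth limits the smallest values: *Acads* had 437 counts in its shallowest mouse.

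Replicate numbers in the titles and in the file names were not stated to pair mice. Of 27 same-numbered pairs, 19 and 24 had deviations with r over 0.1 (mean r, 0.184 and 0.227). Of 108 differently numbered pairs, 17 and 12 did (mean r, −0.0457 and −0.0565). Mice with the same file number had the same sex wherever a sex label was given. The main fit had no block for either number. With either number as a replicate block, the calls were 10 of 10 for fasting and 0 of 10 for genotype, and all genes averaged over diets gave 10 and 15 calls. Over all genes, the main fit called 3862 with fasting in NT+/+ and 4499 in NT-/- mice. The title block called 5006 and 5657, and the file-name block 5484 and 5672. Under the file-name block, fed *Cpt2* was −0.02, fed *Hadha* −0.04, averaged *Acadl* −0.0092, and averaged *Hadha* −0.0073, and under the title block fed *Hadhb* was 0.0047.

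Genotype values near 0 that were not called changed sign. In fed mice *Cpt2* was −0.00068 with the stricter filter and −0.00096 with upper quartile scaling. In fasted mice *Cpt1a* was −0.0065 with upper quartile scaling. With sex as a covariate and NT-/- Fast replicate 5 left out, *Cpt1a* was −0.05, *Acadvl* −0.01, and *Hadha* −0.0056 in fasted mice. In that same fit, *Acadl* (−0.0043) and *Hadha* (−0.0005) turned when averaged, and *Hadha* (−0.01) in the difference of fasting effects. With NT+/+ Fast replicate 5 as NT-/-, averaged *Cpt1a* was 0.03 and the difference for *Acadvl* 0.0088. With 1 mouse left out, ranges that crossed 0 were, in fed mice, *Acadl* −0.24 to 0.0036, *Cpt1a* −0.13 to 0.05, *Cpt2* −0.05 to 0.07, *Hadha* −0.06 to 0.06, and *Hadhb* −0.07 to 0.03; in fasted mice, *Acads* −0.04 to 0.11, *Acadvl* −0.04 to 0.10, *Cpt1a* −0.06 to 0.07, *Hadha* −0.04 to 0.07, and *Hadhb* −0.01 to 0.16. Averaged, they were *Acadl* −0.06 to 0.06, *Cpt1a* −0.06 to 0.03, *Hadha* −0.02 to 0.04, and *Hadhb* −0.02 to 0.07, and for the difference *Acadvl* −0.13 to 0.02, *Cpt1a* −0.04 to 0.14, and *Hadha* −0.05 to 0.08.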
